A study of Homo sapiens and Mus musculus with 16 samples.

Results

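P-bodies of liver bud progenitors were compared with the cytoplasm of the same cells, in 4 of the 16 libraries of the series: 2 P-body libraries and 2 cytoplasm libraries, taken by their sample labels. The series holds the same fraction pair for HEK293T cells, day-20 neurons and mouse embryonic stem cells. All 4 liver bud progenitor libraries derive from UCLA4, a line of human embryonic stem cells, with LSM14A fused to GFP, which the study's methods place at the AAVS1 locus, so the control fraction carried the tagged protein too. The cells were labelled as liver bud progenitors and the molecule as polyA RNA, with no treatment or collection time given. Day-20 neurons, from the same tagged line and with the same molecule label, served here for the 1 comparison with other cells. The cytoplasm fraction was the lysate pellet after nuclei were spun out, and P-bodies were then sorted from that fraction by their GFP signal, so the cytoplasm libraries still held P-body RNA and each fold change is set against a mixture that contains it. No untagged line or sorted GFP-negative particle entered this comparison. The labels number the 2 libraries of a fraction 1 and 2 and do not mention cultures. The study's general statement on its sequencing assays speaks of biological replicates, without describing those of these cells. The p-values measure the spread between these libraries.

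P-bodies are cytoplasmic condensates of RNA and protein that form around the RNA helicase DDX6 together with LSM14A, the decapping enzyme DCP2 and its partners. Messenger RNAs in them are held out of translation, and the proteins present include those that shorten poly(A) tails, remove caps and act with microRNAs. The liver bud is the early outgrowth of foregut endoderm from which hepatoblasts arise, and its cells are usually recognised by transcription factors such as HNF4A, HHEX and TBX3 and by the first secreted liver proteins.

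The cell type label was checked in the cytoplasm, on counts scaled to a common library total (CPM) over the 8 liver bud progenitor and neuron libraries. Of 18 liver bud markers, 17 were higher than in neuron cytoplasm in both libraries, 17 reached 1 CPM in both and 10 reached 20 CPM in both. PROX1 was the marker lower than in neurons, at 12.1 and 9.79 CPM beside 64.5 and 56.9 CPM. HNF4A stood at 36.3 and 34.5 CPM, APOB at 281 and 264 CPM and TTR at 31.6 and 36.9 CPM. HHEX was near the lower end of the markers, at 1.57 and 1.22 CPM, AFP was at 7.41 and 7.22 CPM, and ALB, the main plasma protein of mature liver, had 0 counts in both. Markers of definitive endoderm were present too, with CER1 at 55.3 and 61.9 CPM, EOMES at 15.7 and 14.4 CPM, SOX17 at 2.99 and 4.65 CPM and GSC at 3.13 and 2.08 CPM. CXCR4, at 53 and 49.5 CPM, and LHX1, at 1.14 and 3.31 CPM, were lower than in neuron cytoplasm. Transcripts of pluripotent cells were present beside these markers. LIN28A stood at 596 and 601 CPM, POU5F1 at 79.2 and 76.9 CPM and NANOG at 32.8 and 29.9 CPM. Endoderm and pluripotency transcripts were thus both measured in these libraries, and in bulk RNA a mixed culture and cells that carry both, or fewer cells of a type and less RNA per cell, cannot be told apart.

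The P-body libraries held 9540968 and 10270471 counts and the cytoplasm libraries 6368953 and 7451222, and a floor of 3 counts stood for 0.311 to 0.439 CPM on the TMM-normalized scale of the fold changes. The floor covers counting error only. Ribosomal RNA copies took 12.8% and 12.5% of the P-body counts and 20.4% and 21.1% of the cytoplasm counts. Ranks of genes correlated between the 2 libraries of a fraction with a Spearman rho of 0.967 in P-bodies and 0.969 in cytoplasm, and no library was a copy of another. Markers of other cell types were measured in both fractions. Summed levels over 12 neural markers were 197 and 189.5 CPM in P-bodies and 160.3 and 159.2 CPM in cytoplasm, over 12 mesenchyme and stellate markers 125.5 and 127 CPM and 242 and 253 CPM, over 11 measured mature hepatocyte markers 57.4 and 55.8 CPM and 58.1 and 45.03 CPM, over 11 measured mesoderm and heart markers 72.5 and 69.2 CPM and 97.4 and 102 CPM, and over 10 measured endothelium and blood markers 86.2 and 94.7 CPM and 67.6 and 61.7 CPM. The neural list had 2 members called in each direction, the mesenchyme list 4 depleted, 2 of them collagens, the mature hepatocyte list 1 depleted, the mesoderm list 2 depleted and the endothelium list 1 in each direction. TDO2 of the hepatocyte list had 0 counts in both P-body libraries.

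P-bodies and cytoplasm of liver bud progenitors differed for a large share of genes, and mostly by moderate amounts. Of 21951 genes with a count, 4708 (21.4%) were enriched in P-bodies and 3747 (17.1%) were depleted (edgeR's quasi-likelihood test, Benjamini-Hochberg adjusted p under 0.05, two-sided), and 13496 were not called. Among the 14455 genes that averaged 1 CPM or more these shares were 32.3% and 24.6%, and among the 6447 that averaged 20 CPM or more 53.4% and 27.4%. The fractions did not overlap for 64.1% of genes. Enrichment of 2-fold or more was called for 1733 genes and depletion of that size for 1704. Changes of 4-fold or more were called for 75 enriched and 450 depleted genes, but among genes averaging 20 CPM or more for 3 and 14. The median log2 change over all genes was -0.09, and over genes of at least 1 CPM 0.05. With library size as the only scaling, the median of all genes moved by -0.19 and this turned the split of calls from 55.7% enriched to 44.1% enriched, so fold changes are relative to the TMM scaling. Long noncoding RNAs had a median of -0.39, but most were not called, with 75 enriched and 223 depleted of 2303, both below the shares over all genes. Olfactory receptor genes, of which 216 of 341 had at most 3 counts in each library, had a median of -0.57. The part of low counts in such medians was not tested. The 17380 protein-coding genes had a median of -0.003, 4503 enriched and 3205 depleted.

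**Figure D1:**
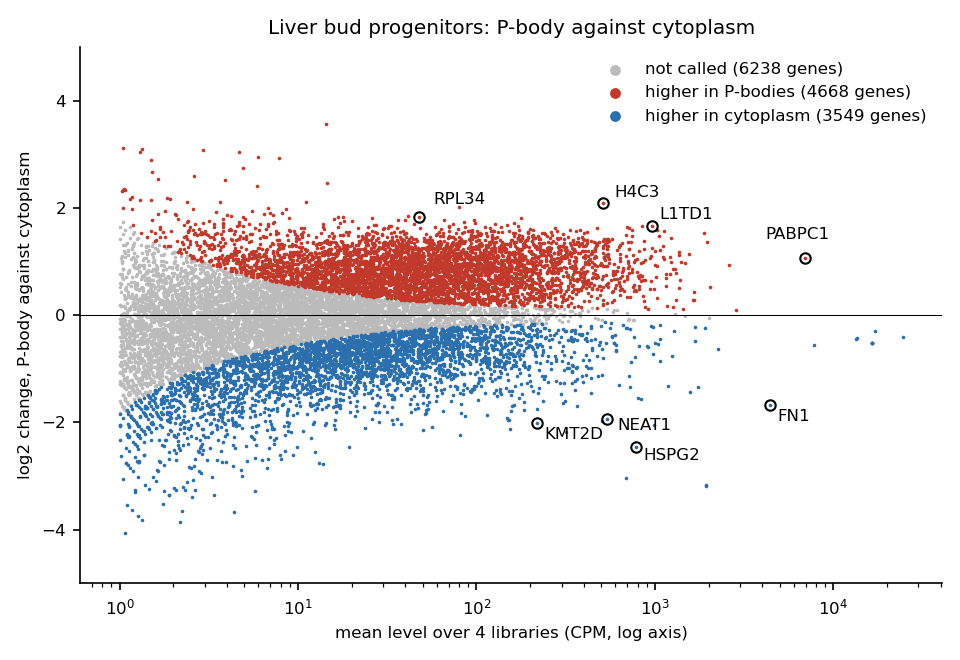
Log2 change in P-bodies against cytoplasm (y axis) by mean level over the 4 liver bud progenitor libraries (x axis, CPM on a log scale) for genes averaging 1 CPM or more. Each point is a gene, coloured as higher in P-bodies (4668), higher in cytoplasm (3549) or not called (6238), and the ringed genes are described in the text.

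Ribosomal protein transcripts were almost uniformly on the P-body side. Of 83 cytosolic ribosomal protein genes 73 were enriched, 0 were depleted and 10 were not called, against 21.4% enriched among all genes, and the median log2 change was 0.92 beside -0.09 over all genes. Their summed level was 15400 and 14340 CPM in P-bodies and 7496 and 7494 CPM in cytoplasm. RPL34, a protein of the large subunit (chromosome 4, 108620569 to 108630412, plus strand), had 84.7 and 65.1 CPM in P-bodies and 18.6 and 23.3 CPM in cytoplasm, a log2 change of 1.83 ± 0.12 (± SE; adjusted p = 4.89e-21, edgeR). RPL6, also of the large subunit, had 1340 and 1224 CPM in P-bodies and 408 and 399 CPM in cytoplasm, a log2 change of 1.67 ± 0.051 (adjusted p = 3.06e-38). RPS3A, of the small subunit, had 197 and 175 CPM in P-bodies and 66.03 and 59.2 CPM in cytoplasm, a log2 change of 1.57 ± 0.082 (adjusted p = 2.07e-26). For these 3 genes both P-body libraries lay above both cytoplasm libraries. RPL28 and RPL38, both of the large subunit, were among the 10 that did not pass, with log2 changes of 0.25 and 0.26. Ribosomal protein genes have many processed pseudogenes, and reads shared with them make single members uncertain.

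Ribosomal protein messages belong to the TOP class, whose first base is a C followed by an unbroken run of pyrimidines, the 5′ terminal oligopyrimidine motif through which growth signalling controls their translation. Reference first bases are shown for 3 ribosomal protein genes and 2 elongation factors with different values, with the run from the start site in capitals (RefSeq starts, GRCh38.p14; RPL34 chr4:108620576-108620600, RPS3A chr4:151099628-151099652 and RPL28 chr19:55385932-55385956 on the plus strand, EEF1A1 chr6:73521008-73521032 and EEF2 chr19:3985439-3985463 on the minus strand).
RPL34: CCTCTTCCggggacgttgtctgcag
RPS3A: CCCTTTTggctctctgaccagcacc
RPL28: CTCTTTCCgtctcaggtcgccgctg
EEF1A1: CTTTTTCgcaacgggtttgccgcca
EEF2: CTCTTCCgccgtcgtcgccgccatc
A start with C and at least 4 further pyrimidines, read on the transcript strand only, was present at 44 of the 67 ribosomal protein genes matched in the promoter table (65.7%) and at 1104 of all 27305 promoters in it (4.04%). Among ribosomal protein genes, the median log2 change was 0.83 with such a start and 0.99 without. Among 21 matched genes of the list of translation factors and other TOP transcripts, 15 had such a start, and the medians were 0.74 with it and -0.20 without. Over all promoters the medians were 0.10 and -0.03. EEF1A1, the factor that brings transfer RNA to the ribosome, had 3476 and 3350 CPM in P-bodies and 1747 and 1806 CPM in cytoplasm, a log2 change of 0.94 ± 0.039 (adjusted p = 2.86e-31, edgeR). EEF2, the translocation factor, begins with a run of the same kind and was on the other side, with 438 and 432 CPM in P-bodies and 596 and 657 CPM in cytoplasm and a log2 change of -0.53 ± 0.055 (adjusted p = 5.77e-13). A start of this kind was thus seen in genes called in either direction.

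Translation factors and other transcripts of the TOP class gave 19 enriched, 5 depleted and 7 not called of 31, with a median of 0.61. All 24 called members were among the 29 that averaged 20 CPM or more, beside 53.4% enriched and 27.4% depleted over all genes of that level. NPM1, the nucleolar chaperone nucleophosmin, had 1101 and 1083 CPM in P-bodies and 402 and 383 CPM in cytoplasm, a log2 change of 1.48 ± 0.051 (adjusted p = 2.28e-35, edgeR). NAP1L1, a histone chaperone, had 2830 and 2823 CPM in P-bodies and 1136 and 1048 CPM in cytoplasm, a log2 change of 1.37 ± 0.043. TPT1, a growth-related protein of the TOP class, had 608 and 559 CPM in P-bodies and 233 and 239 CPM in cytoplasm, a log2 change of 1.31 ± 0.059. The P-body libraries were the higher ones for all 3. PABPC1, the cytoplasmic poly(A) binding protein, stood at 9486 and 9363 CPM in P-bodies and 4542 and 4405 CPM in cytoplasm, a log2 change of 1.07 ± 0.032. The 5 depleted members were EEF2, EIF3C (-0.94), EIF3B (-0.57) and EIF3G (-0.41), all subunits of the initiation factor eIF3 apart from EEF2, and VIM, the intermediate filament protein vimentin (-0.47). The call of EIF3G was lost with DESeq2, with all human libraries in 1 fit, without cytoplasm replicate 2 (-0.31) and without P-body replicate 1 (-0.34).

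Replication-dependent histone genes, which are expressed in S phase and whose messages end in a stem-loop in place of a poly(A) tail, were also on the P-body side. Of 64 genes 39 were enriched, 3 depleted and 22 not called, the median log2 change was 0.73, and their summed level was 4194 and 3941 CPM in P-bodies and 1885 and 2132 CPM in cytoplasm. Among the 33 that averaged 20 CPM or more, 27 were enriched and 1 depleted, beside 53.4% and 27.4% over all genes of that level. The histone genes were well counted although the libraries were labelled polyA RNA, and how their messages entered the libraries was not tested. The 3′ stem-loop of 4 members is shown in capitals with its flanks, as it stands in GENCODE transcripts on hg38 (all on chromosome 6; H4C3 26103933 to 26104337 and H2AC6 26124145 to 26139116 on the plus strand, H3C4 26196784 to 26197286 and H2AC14 27814302 to 27814777 on the minus strand).
H4C3: acccaaaGGCCCTTTTCAGGGCCgctca
H3C4: acccaaaGGCTCTTTTCAGAGCCaacca
H2AC6: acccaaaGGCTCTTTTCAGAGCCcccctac
H2AC14: aaacaaaGGCTCTTTTCAGAGCCacttca
A search of the transcript strand for this stem-loop found it in 60 of the 64 histone genes (93.8%) and in 4 of 20255 other genes with a transcript (0.0197%). H4C3, a histone H4 gene, had 889.8 and 779.5 CPM in P-bodies and 200.1 and 190.1 CPM in cytoplasm, a log2 change of 2.1 ± 0.06 (adjusted p = 4.67e-40, edgeR). H3C4, a histone H3 gene, had 134 and 141 CPM in P-bodies and 60.8 and 69.9 CPM in cytoplasm, a log2 change of 1.07 ± 0.083 (adjusted p = 4.65e-18). H2AC6, a histone H2A gene, had 238 and 236 CPM in P-bodies and 116 and 146 CPM in cytoplasm, a log2 change of 0.85 ± 0.075 (adjusted p = 7.87e-16). The fractions did not overlap for these 3. H2AC14, another H2A gene with the same stem-loop, changed least of the 4 shown, with 153 and 137 CPM in P-bodies and 70.7 and 109.9 CPM in cytoplasm and a log2 change of 0.67 ± 0.095 (adjusted p = 9.24e-09), a call that DESeq2 did not make.

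H4C8 (chromosome 6, 26277609 to 26285638, minus strand) had 134 and 122.9 CPM in P-bodies and 33.2 and 30.5 CPM in cytoplasm, a log2 change of 2.02 ± 0.095 (adjusted p = 1.50e-28, edgeR). H4C14 had 46.6 and 39.1 CPM in P-bodies and 0 and 0 CPM in cytoplasm, at least 105-fold higher in P-bodies against a floor of 3 counts per library. Reads of H4C14 cannot be told safely from those of its near-identical copy H4C15, so the sum of both is the safer value, at 92.5 and 85.9 CPM in P-bodies and 26.8 and 24.0 CPM in cytoplasm, a log2 ratio of 1.81. Summed in the same way, H2AC18 and H2AC19 stood at 21.3 and 17.0 CPM against 14.1 and 14.5 CPM, and H3C14 and H3C15 at 17.7 and 16.3 CPM against 12.7 and 11.5 CPM. Histone genes of 1 type are close to each other in sequence, and single members are uncertain for that reason. The 12 replacement histone genes, which have polyadenylated messages, gave 4 enriched and 3 depleted with a median of -0.17. This median was -0.275 without cytoplasm replicate 1, -0.020 without cytoplasm replicate 2 and -0.050 without P-body replicate 1, and the depleted count was 1 without cytoplasm replicate 1 and 1 without P-body replicate 2.

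Nuclear-encoded genes of the mitochondrion followed the ribosomal proteins. Of 76 subunits of oxidative phosphorylation, the respiratory chain and ATP synthase, 47 were enriched, 1 was depleted and 28 were not called, with a median of 0.67. Among the 31 that averaged 20 CPM or more, 25 were enriched and 0 depleted, beside 53.4% and 27.4% over all genes of that level. ATP5MC1, a membrane subunit of ATP synthase, had 51.6 and 46.8 CPM in P-bodies and 15.1 and 16.1 CPM in cytoplasm, a log2 change of 1.66 ± 0.14 (adjusted p = 3.86e-17, edgeR). COX5B, of cytochrome c oxidase, had 34.99 and 33.5 CPM in P-bodies and 13.03 and 13.4 CPM in cytoplasm, a log2 change of 1.37 ± 0.15 (adjusted p = 9.38e-12). COX7C, of the same complex, had 63.6 and 62.2 CPM in P-bodies and 27.2 and 25.7 CPM in cytoplasm, a log2 change of 1.25 ± 0.11 (adjusted p = 2.51e-15). The fractions were apart for each of the 3. Of 78 mitochondrial ribosomal proteins, 40 were enriched and 1 was depleted, with a median of 0.67. DESeq2 called 25 of them enriched. Among the 19 that averaged 20 CPM or more, 12 were enriched and 0 depleted, beside the same 53.4% and 27.4%. MRPL51 of the large mitochondrial subunit had 31.7 and 35.3 CPM in P-bodies and 15.1 and 13.3 CPM in cytoplasm, a log2 change of 1.25 ± 0.15 (adjusted p = 2.04e-10).

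**Figure D2:**
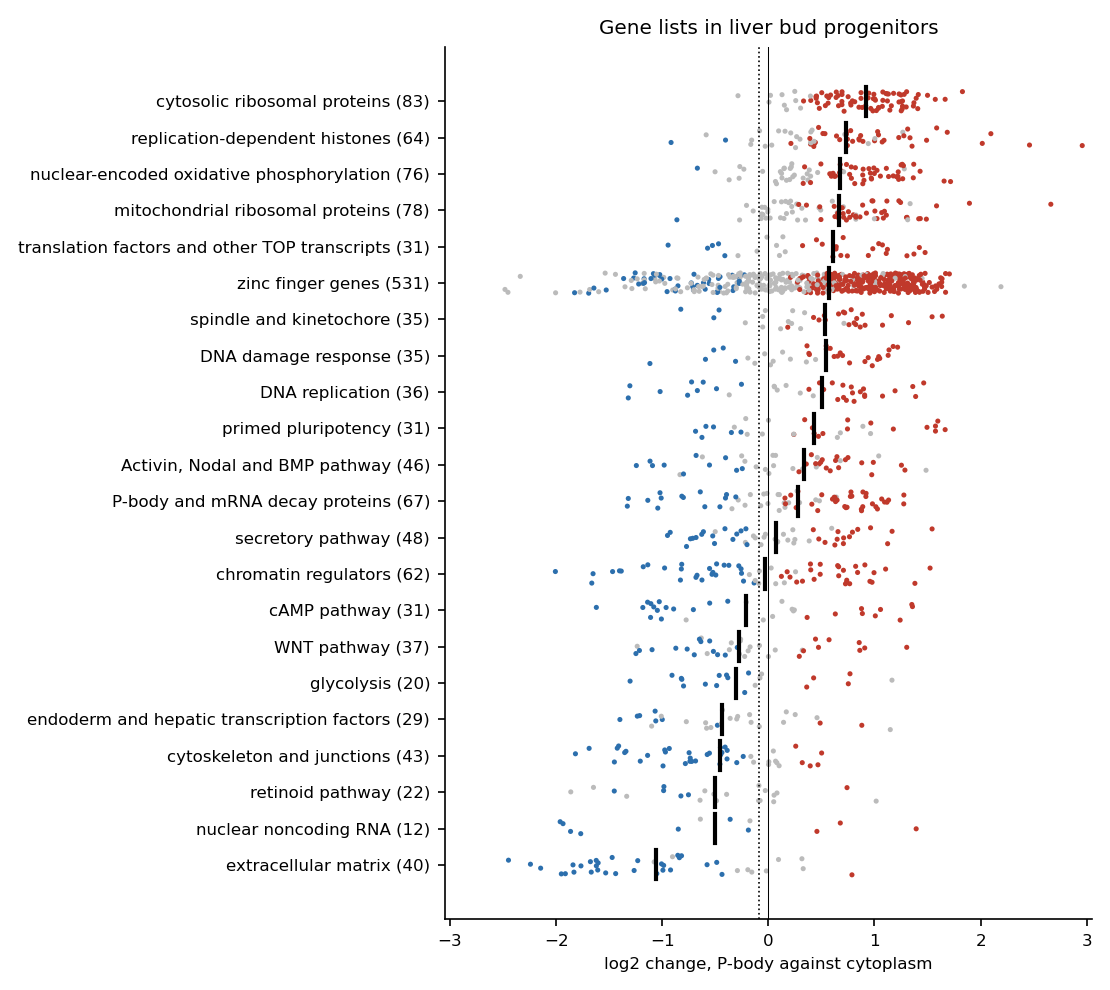
Log2 change in P-bodies against cytoplasm (x axis) for the members of 22 gene lists, with the number of measured members in brackets. Each point is a gene, red if enriched, blue if depleted and grey if not called, the bar is the median of the list, the dotted line the median of all genes at -0.09, and 5 members lie outside the axis.

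Extracellular matrix transcripts were mostly on the cytoplasm side. Of 40 genes 30 were depleted, 1 was enriched and 9 were not called, against 17.1% depleted among all genes, with a median of -1.06. Their summed level was 13620 and 14270 CPM in cytoplasm and 5461 and 5705 CPM in P-bodies. Collagens gave 13 depleted and 0 enriched of 15, with a median of -1.60, and laminins, fibronectin and other matrix proteins 13 and 0 of 14, with a median of -1.46. HSPG2, the basement membrane proteoglycan perlecan (chromosome 1, 21822244 to 21937310, minus strand), had 233 and 251 CPM in P-bodies and 1256 and 1387 CPM in cytoplasm, a log2 change of -2.45 ± 0.055 (adjusted p = 2.65e-46, edgeR). FN1, fibronectin, had 2047 and 2181 CPM in P-bodies and 6588 and 6930 CPM in cytoplasm, a log2 change of -1.68 ± 0.037 (adjusted p = 1.17e-46). COL4A2, a chain of the basement membrane collagen, had 59.9 and 64.2 CPM in P-bodies and 216 and 251 CPM in cytoplasm, a log2 change of -1.91 ± 0.079 (adjusted p = 1.76e-31). Neither P-body library reached the lower cytoplasm library for any of these. LAMA5 and LAMA1, laminin chains, had log2 changes of -2.24 and -1.61, AGRN, the proteoglycan agrin, -1.95, and the collagen chains COL5A1 and COL1A1 -2.15 and -1.83.

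Integrins, the receptors for this matrix, were less one-sided, with 1 enriched and 4 depleted of 11 and a median of -0.29 that was -0.44 without cytoplasm replicate 2 and -0.19 without cytoplasm replicate 1. ITGB1, the beta subunit shared by most of them, was the enriched member, with 172 and 188 CPM in P-bodies and 108 and 101 CPM in cytoplasm and a log2 change of 0.79 ± 0.075 (adjusted p = 2.25e-14, edgeR). Genes of the cytoskeleton and of cell junctions were mostly on the cytoplasm side, with 30 depleted and 5 enriched of 43 and a median of -0.46. The actin group gave 15 depleted and 1 enriched of 18, with a median of -0.95. MYH9, nonmuscle myosin, had 169 and 178 CPM in P-bodies and 529 and 592 CPM in cytoplasm, a log2 change of -1.69 ± 0.062 (adjusted p = 3.81e-34). FLNA, the actin crosslinker filamin A, had 822 and 897 CPM in P-bodies and 2176 and 2437 CPM in cytoplasm, a log2 change of -1.42 ± 0.047. For both, the cytoplasm libraries were the higher ones. DYNC1H1, the heavy chain of cytoplasmic dynein, changed by -1.34 and PLEC, the linker protein plectin, by -1.82. TPM4, a tropomyosin, was the enriched member of the actin group (0.5).

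The secretory pathway was divided by role. Its 48 genes gave 15 enriched and 16 depleted, with a median of 0.07 that was -0.02 with the filterByExpr filter, -0.11 with library size only and 0.006 without cytoplasm replicate 2. The translocon and the signal recognition particle, which bring nascent chains into the endoplasmic reticulum, gave 8 enriched and 0 depleted of 18, with a median of 0.43. At 20 CPM or more 7 and 0 of 12 were called, beside 53.4% and 27.4% over all genes of that level, so the enriched share was close to that of all genes. SEC62, of the translocon, had 136 and 134 CPM in P-bodies and 65.6 and 55.3 CPM in cytoplasm, a log2 change of 1.17 ± 0.085 (adjusted p = 2.88e-19, edgeR), and SRP72, of the signal recognition particle, changed by 1.12 ± 0.058. Chaperones of the endoplasmic reticulum gave 2 enriched and 8 depleted of 11, with a median of -0.26. HYOU1, a chaperone of the HSP70 type, changed by -0.95 ± 0.074 and CALR, calreticulin, by -0.73 ± 0.058, whereas CANX, its membrane-bound relative calnexin, was enriched, at 0.65 ± 0.048. Coat and trafficking proteins gave 5 and 8 of 19.

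Metabolic enzymes showed both directions. Glycolysis gave 4 enriched and 12 depleted of 20 genes, with a median of -0.30. PFKP, a phosphofructokinase, had 11.4 and 15.6 CPM in P-bodies and 32.4 and 34.7 CPM in cytoplasm, a log2 change of -1.3 ± 0.16 (adjusted p = 9.72e-11, edgeR). LDHA, lactate dehydrogenase, was on the other side, with 87.7 and 88.95 CPM in P-bodies and 54.2 and 50.7 CPM in cytoplasm and a log2 change of 0.75 ± 0.092 (adjusted p = 1.42e-10). Enzymes of cholesterol synthesis gave 7 enriched and 3 depleted of 19, with a median of 0.42, and genes of its regulation and uptake 5 and 7 of 12, with a median of -0.40. IDI1, which isomerises the isoprene unit, changed by 1.38 ± 0.18, whereas SREBF2, the transcription factor that controls these enzymes, changed by -0.86 ± 0.075. The median over the enzymes was 0.25 without P-body replicate 1 and 0.16 without P-body replicate 2. Over all 31 cholesterol genes the median was 0.30, 0.46 without cytoplasm replicate 1, 0.13 without cytoplasm replicate 2 and 0.10 without P-body replicate 2.

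The pathways that direct endoderm and early liver fate were taken by role. Activin, Nodal and BMP ligands act through serine kinase receptors that phosphorylate SMAD proteins. Of 46 genes of this pathway, 19 were enriched and 10 depleted, with a median of 0.34, and 4 were depleted when all human libraries were fitted together. Of the 28 that averaged 20 CPM or more, 16 were enriched and 8 depleted, close to the shares of 53.4% and 27.4% over all genes of that level. Ligands gave 2 enriched and 4 depleted of 11 and secreted inhibitors 1 and 2 of 7. Receptors gave 7 and 1 of 11 and SMADs 5 and 1 of 8. SMAD5, which carries the BMP signal, had 1606 and 1565 CPM in P-bodies and 682 and 617 CPM in cytoplasm, a log2 change of 1.29 ± 0.048 (adjusted p = 1.58e-33, edgeR). BMPR1A, a type I BMP receptor, had 242 and 250 CPM in P-bodies and 131 and 136 CPM in cytoplasm, a log2 change of 0.88 ± 0.069 (adjusted p = 6.80e-18). SKIL, a repressor of SMAD transcription, had 497 and 475 CPM in P-bodies and 214 and 194 CPM in cytoplasm, a log2 change of 1.25 ± 0.061 (adjusted p = 9.30e-28). All 3 were higher in both P-body libraries. TGFBR1, a type I receptor, changed by 0.97, while ACVR1B, the activin receptor of the same class, changed by -0.8. On the cytoplasm side stood also TGFB2, a ligand (-1.24), and CER1, a secreted inhibitor of Nodal (-0.55), which did not pass with all human libraries in 1 fit.

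WNT signalling gave 9 enriched and 13 depleted of 37 genes, with a median of -0.27. At 20 CPM or more the pathway gave 9 and 11 of 21, beside 53.4% and 27.4% over all genes of that level. Its intracellular effectors gave 0 enriched and 5 depleted of 8, with a median of -0.56, receptors 5 and 6 of 14, and inhibitors 4 and 2 of 10. APC, the scaffold of the beta-catenin destruction complex, had 918 and 954 CPM in P-bodies and 528 and 469.6 CPM in cytoplasm, a log2 change of 0.91 ± 0.053 (adjusted p = 6.19e-24, edgeR). FZD6, a Frizzled receptor, changed by 1.3 ± 0.13, whereas LRP5, the co-receptor, changed by -1.22 ± 0.13 and DVL3, which relays the signal inside the cell, by -1.1 ± 0.078. Retinoid receptors, enzymes and targets gave 1 enriched and 5 depleted of 22, with a median of -0.50, and 9 were depleted with library size only. The depleted share lay between the 17.1% over all genes and the 24.6% over genes of at least 1 CPM. The enriched share was below the 21.4% over all genes. The FGF and RAS pathway gave 11 enriched and 8 depleted of 30. These shares were close to the 32.3% and 24.6% over all genes of at least 1 CPM. The pathway had a median of 0.06 that was -0.13 with library size only, 0.11 without cytoplasm replicate 1 and 0.10 without P-body replicate 2. Its enriched count was 7 without cytoplasm replicate 2 and 7 without P-body replicate 2, and its depleted count 5 without cytoplasm replicate 2. NRAS, a RAS GTPase, had 803 and 785 CPM in P-bodies and 303 and 289.9 CPM in cytoplasm, a log2 change of 1.42 ± 0.055 (adjusted p = 5.46e-33). FGF2, the ligand used to grow primed embryonic stem cells, changed by 1.18 ± 0.083 and FGFR1, its receptor, by -0.62 ± 0.057.

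The cAMP pathway, in which protein kinase A activates the factor CREB1, gave 9 enriched and 14 depleted of 31 genes. At 20 CPM or more the pathway gave 7 and 5 of 15, beside 53.4% and 27.4% over all genes of that level. The median over all 31, -0.21, was 0.06 without cytoplasm replicate 2, so no direction was read from it. Transcription factors and coactivators gave 3 enriched and 7 depleted of 13. CREB1 had 534 and 526 CPM in P-bodies and 207 and 207 CPM in cytoplasm, a log2 change of 1.36 ± 0.059 (adjusted p = 2.66e-30, edgeR). The coactivators that CREB1 recruits were on the other side. CREBBP had 225 and 224 CPM in P-bodies and 487 and 532 CPM in cytoplasm, a log2 change of -1.18 ± 0.06 (adjusted p = 4.42e-27), and its paralog EP300 changed by -1.11 ± 0.055. CRTC1, a coactivator controlled by cAMP, changed by -1.62 ± 0.19.

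Transcripts of the earlier, pluripotent stage and of the endoderm and liver stages were listed separately. Of 31 primed pluripotency genes, 15 were enriched and 6 depleted, with a median of 0.43, and all 15 were among the 24 that averaged 20 CPM or more, beside 53.4% enriched among all genes of that level. L1TD1, an RNA-binding protein of embryonic stem cells, had 1507 and 1419 CPM in P-bodies and 474 and 448 CPM in cytoplasm, a log2 change of 1.67 ± 0.05 (adjusted p = 5.09e-39, edgeR). LIN28B, which blocks let-7 maturation, had 438 and 415 CPM in P-bodies and 146 and 139.9 CPM in cytoplasm, a log2 change of 1.57 ± 0.064 (adjusted p = 9.90e-32). TERF1, the telomere protein, had 1720 and 1648 CPM in P-bodies and 567 and 563 CPM in cytoplasm, a log2 change of 1.57 ± 0.047 (adjusted p = 5.45e-39). The P-body libraries were the higher ones for these 3. Among the core factors, NANOG had 52.9 and 55.1 CPM in P-bodies and 33.7 and 30.9 CPM in cytoplasm, a log2 change of 0.75 ± 0.11, and SOX2 128 and 128 CPM in P-bodies and 73.8 and 78.9 CPM in cytoplasm, a log2 change of 0.75 ± 0.081. POU5F1 had 88.3 and 102 CPM in P-bodies and 81.4 and 79.4 CPM in cytoplasm, and its log2 change of 0.24 (adjusted p = 0.0195) was lost with DESeq2, filterByExpr, library size only and all human libraries in 1 fit, without cytoplasm replicate 2 (0.18) and without P-body replicate 2 (0.14). With all human libraries in 1 fit the call of NANOG was lost too. The depleted members included DNMT3B, the de novo DNA methyltransferase (-0.63), and PODXL, a surface protein (-0.52).

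Endoderm and hepatic transcription factors gave 2 enriched, 7 depleted and 20 not called of 29, with a median of -0.43 that was -0.28 without cytoplasm replicate 1. The depleted share was close to the 24.6% over all genes of at least 1 CPM, and the enriched share was below their 32.3%. Of the 6 that averaged 20 CPM or more, 0 were enriched and 4 depleted, beside 53.4% and 27.4% over all genes of that level. HNF4A, a central regulator of hepatocyte fate (chromosome 20, 44355699 to 44432845, plus strand), had 14.8 and 16.1 CPM in P-bodies and 37.3 and 35.7 CPM in cytoplasm, a log2 change of -1.24 ± 0.15 (adjusted p = 4.99e-11, edgeR). GATA4, an endoderm factor, had 16.8 and 19.3 CPM in P-bodies and 40.9 and 42.9 CPM in cytoplasm, a log2 change of -1.21 ± 0.14 (adjusted p = 8.92e-12). For both the cytoplasm libraries were the higher ones. GATA6 and TBX3 changed by -1.07 and -1.0. The enriched members were NR5A2, a nuclear receptor, with 19.4 and 16.9 CPM in P-bodies and 9.66 and 9.99 CPM in cytoplasm and a log2 change of 0.88 ± 0.19, and PROX1, the hepatoblast factor, at 0.49 (adjusted p = 0.0449), which was lost without cytoplasm replicate 2 (0.30), without P-body replicate 1 (0.32) and under 4 other alternatives. Secreted and lipid transport proteins of liver gave 2 enriched and 5 depleted of 26, and DESeq2 called 3 depleted. Their depleted share was close to the 17.1% over all genes, and their enriched share was below the 21.4%. The median of -0.33 was -0.22 without cytoplasm replicate 1 and -0.52 without cytoplasm replicate 2. APOB, the protein of very low density lipoprotein, had 114 and 126 CPM in P-bodies and 289 and 272 CPM in cytoplasm, a log2 change of -1.23 ± 0.07 (adjusted p = 1.84e-24). IGF2, the fetal growth factor, changed by -1.77 ± 0.25 and GPC3, the oncofetal proteoglycan, by -0.55 ± 0.086. TTR, transthyretin, was enriched, with 50.8 and 47.3 CPM in P-bodies and 32.5 and 38.1 CPM in cytoplasm and a log2 change of 0.47 ± 0.11, which did not pass with all human libraries in 1 fit. The mesoderm and mesenchyme markers given above were also lower in P-bodies in their summed levels, and their part in these values was not tested.

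**Figure D3:**
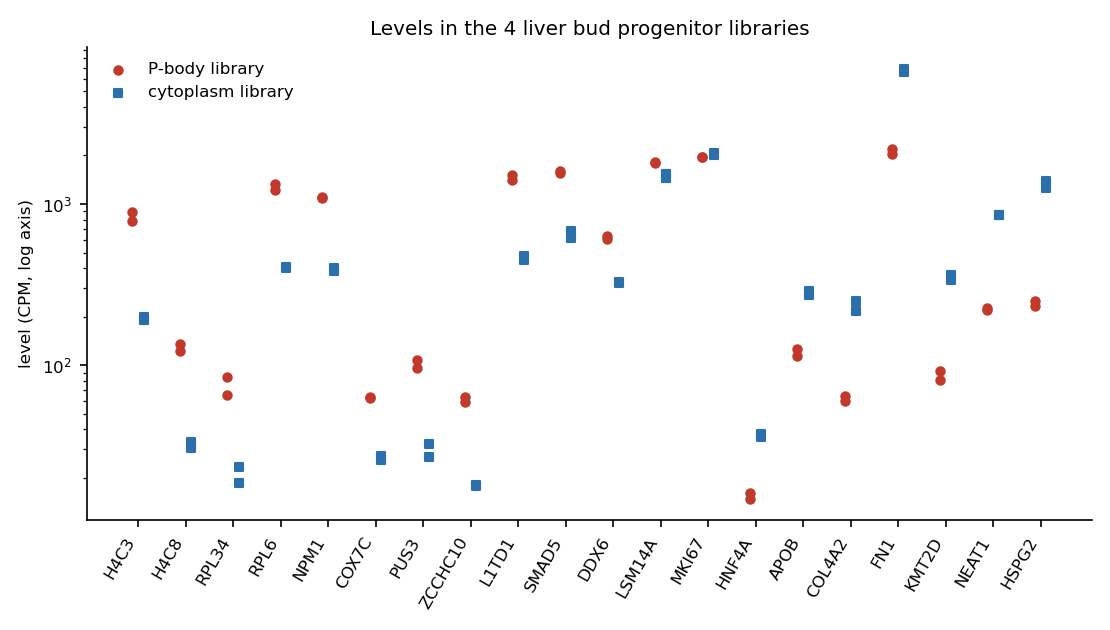
Level of 20 named genes (y axis, CPM on a log scale) in each of the 4 liver bud progenitor libraries, circles for P-body and squares for cytoplasm libraries. The 2 libraries of a fraction lie close together for each gene, and MKI67 is the only gene shown whose change did not pass the test.

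The transcripts that encode the machinery of P-bodies were themselves on both sides. Of 67 genes for P-body and mRNA decay proteins, 34 were enriched and 14 depleted, with a median of 0.28. Of the 53 that averaged 20 CPM or more, 29 were enriched and 13 depleted, close to the shares of 53.4% and 27.4% over all genes of that level. LSM14A, the tagged protein, had 1820 and 1802 CPM in P-bodies and 1447 and 1538 CPM in cytoplasm, a log2 change of 0.28 ± 0.043 (adjusted p = 8.59e-08, edgeR), and the call was lost with library size only. Reads of the tagged copy were not counted apart from those of the native gene. Among core and decapping genes 10 of 21 were enriched and 3 depleted. DDX6, the helicase, had 630 and 609 CPM in P-bodies and 330.2 and 324 CPM in cytoplasm, a log2 change of 0.92 ± 0.055 (adjusted p = 2.84e-23). DCP2, the decapping enzyme, had 455 and 445 CPM in P-bodies and 190.3 and 181 CPM in cytoplasm, a log2 change of 1.28 ± 0.061 (adjusted p = 4.79e-28). Both were apart from the cytoplasm libraries. EDC4, the scaffold of the decapping complex, changed by -1.02. Deadenylation genes gave 12 enriched and 2 depleted of 17, and CNOT3, a subunit of the CCR4-NOT complex, was on the cytoplasm side with 49.9 and 60.9 CPM in P-bodies and 128 and 150.4 CPM in cytoplasm and a log2 change of -1.33 ± 0.089. Genes of microRNA silencing gave 5 and 4 of 13. DICER1, which cuts microRNA precursors, had 943 and 951 CPM in P-bodies and 472 and 467 CPM in cytoplasm, a log2 change of 1.01 ± 0.051. ATXN2L, a stress granule protein, changed by -1.32.

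Cell division genes were more often enriched than depleted. Spindle and kinetochore genes gave 21 enriched and 3 depleted of 35, with a median of 0.54, and 20 and 3 of the 27 that averaged 20 CPM or more, beside 53.4% and 27.4% over all genes of that level. KIF18A, a mitotic kinesin, had 297 and 283 CPM in P-bodies and 105 and 94.2 CPM in cytoplasm, a log2 change of 1.54 ± 0.072 (adjusted p = 6.95e-29, edgeR). CENPQ, of the kinetochore, had 104 and 108 CPM in P-bodies and 36.6 and 31.8 CPM in cytoplasm, a log2 change of 1.64 ± 0.097 (adjusted p = 1.64e-23). The fractions did not overlap for these. PLK1, the mitotic kinase, and INCENP, of the chromosomal passenger complex, were on the other side, at -0.51 and -0.83. MKI67, the proliferation marker, had 1964 and 1971 CPM in P-bodies and 2025 and 2060 CPM in cytoplasm and did not pass (-0.05, adjusted p = 0.337), though it passed as depleted with filterByExpr and with library size only. DNA replication genes gave 20 enriched and 9 depleted of 36, with a median of 0.50, and at 20 CPM or more 12 and 6 of 22, close to the shares over all genes of that level. RFC1, of the clamp loader, changed by 1.36 ± 0.051 and POLE, the leading-strand polymerase, by -1.32 ± 0.083. DNA damage response genes gave 21 enriched and 5 depleted of 35, with a median of 0.55, and at 20 CPM or more 19 and 4 of 29. BRCA1, of homologous recombination, changed by 0.94 ± 0.067, whereas FANCA, of crosslink repair, changed by -1.12 ± 0.18. Targets of p53 gave 9 and 3 of 23, the depleted count being 1 with DESeq2. At 20 CPM or more they gave 8 and 1 of 15, with an enriched share close to that over all genes of that level. CCNG1, a cyclin of this group, had 2853 and 2784 CPM in P-bodies and 1017 and 936 CPM in cytoplasm, a log2 change of 1.53 ± 0.043.

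Chromatin regulators gave equal counts, 27 enriched and 27 depleted of 62, with a median of -0.03, which was above 0 without either P-body library. Of the 59 that averaged 20 CPM or more, 27 were enriched and 25 depleted, beside 53.4% and 27.4% over all genes of that level. Their depleted share was thus above that of all genes, and their enriched share below. KMT2D, a histone H3 lysine methyltransferase (chromosome 12, 49018975 to 49060794, minus strand), had 81.4 and 92.4 CPM in P-bodies and 337 and 362 CPM in cytoplasm, a log2 change of -2.01 ± 0.071 (adjusted p = 7.18e-35, edgeR). SMARCA4, the ATPase of the BAF remodeler, had 207 and 187 CPM in P-bodies and 498 and 542 CPM in cytoplasm, a log2 change of -1.4 ± 0.062 (adjusted p = 4.47e-30). ARID1A, of the same complex, changed by -1.18 ± 0.057. These 3 were on the cytoplasm side. TET1, which oxidises methylated cytosine, had 1975 and 1961 CPM in P-bodies and 1032 and 968 CPM in cytoplasm, a log2 change of 0.98 ± 0.044 (adjusted p = 1.85e-29), TDG, the glycosylase that acts after it, changed by 1.52 ± 0.081, and ATRX, a remodeler of repeats, by 1.0 ± 0.044. Zinc finger genes, most of which encode transcription factors and many of which bind transposable elements, were largely on the P-body side, with 284 enriched, 44 depleted and 203 not called of 531 and a median of 0.57. ZNF680 had 255 and 264 CPM in P-bodies and 84.3 and 78.9 CPM in cytoplasm, a log2 change of 1.67 ± 0.074 (adjusted p = 4.71e-30). Zinc finger genes have close paralogs, and values of single members are uncertain.

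A list of 12 noncoding RNAs, most of them known for roles in the nucleus, gave 3 enriched and 7 depleted, with a median of -0.50. NEAT1, the scaffold of nuclear paraspeckles, had 219 and 227 CPM in P-bodies and 852 and 851 CPM in cytoplasm, a log2 change of -1.94 ± 0.056 (adjusted p = 6.14e-40, edgeR). MALAT1, of nuclear speckles, had 805 and 729 CPM in P-bodies and 1400 and 1363 CPM in cytoplasm, a log2 change of -0.85 ± 0.048 (adjusted p = 1.63e-24). KCNQ1OT1, an imprinted antisense RNA, had 56.97 and 66.99 CPM in P-bodies and 249 and 235 CPM in cytoplasm, a log2 change of -1.96 ± 0.078 (adjusted p = 3.47e-32). All 3 were thus counted well in a fraction from which nuclei had been spun out, and the part of nuclear RNA in the depleted genes was not tested. MEG3 changed by -1.77 and SCARNA2, a Cajal body RNA, by -1.86. The enriched members were GAS5, a small nucleolar RNA host whose spliced RNA is exported to the cytoplasm, with 58.5 and 54.5 CPM in P-bodies and 23.4 and 19.7 CPM in cytoplasm and a log2 change of 1.39 ± 0.12, SNHG14 (0.68) and TUG1 (0.46). Small nucleolar RNA genes gave 1 enriched and 15 depleted of 66 with a median of -1.65, and their host genes 5 and 5 of 26. Hosts of microRNAs gave 1 enriched and 4 depleted of 13, at summed levels of 35.8 and 34.5 CPM in P-bodies and 42.2 and 44.5 CPM in cytoplasm.

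Among genes averaging 20 CPM or more whose fractions did not overlap, the 10 with the largest enrichment included the 3 histone H4 genes and RPL34 described above. PUS3, a pseudouridine synthase of transfer RNA (chromosome 11, 125893485 to 125903221, minus strand), had 107 and 95.6 CPM in P-bodies and 32.2 and 27.1 CPM in cytoplasm, a log2 change of 1.78 ± 0.10 (adjusted p = 4.09e-24, edgeR). ZCCHC10, a zinc knuckle protein (chromosome 5, 132996985 to 133026604, minus strand), had 58.99 and 63.6 CPM in P-bodies and 17.9 and 18.1 CPM in cytoplasm, a log2 change of 1.77 ± 0.12 (adjusted p = 3.32e-20). CCDC181 (chromosome 1, 169394870 to 169460669, minus strand) had 42.3 and 38.3 CPM in P-bodies and 10.98 and 11.8 CPM in cytoplasm, a log2 change of 1.82 ± 0.15. Both P-body libraries exceeded both cytoplasm libraries for these 3, as their selection required. ARMC1, an armadillo repeat protein, changed by 1.84 ± 0.12 and OTUD6B-AS1, an antisense RNA whose reads may include its partner's, by 1.78 ± 0.13. RGPD8, of a family of near-identical copies, had 384 and 172 CPM in P-bodies and 49.3 and 107 CPM in cytoplasm, and its call was lost when all human libraries were fitted together. The 10 with the largest depletion included HSPG2, LAMA5, COL5A1 and KMT2D. DUOX2, a hydrogen peroxide-producing oxidase, had 17.3 and 12.3 CPM in P-bodies and 58.3 and 62.6 CPM in cytoplasm, a log2 change of -2.04 ± 0.13 (adjusted p = 1.48e-21). GRIN2B, a glutamate receptor subunit, had 11.9 and 14.8 CPM in P-bodies and 56.1 and 53.5 CPM in cytoplasm, a log2 change of -2.03 ± 0.14 (adjusted p = 4.53e-21). Both were higher in both cytoplasm libraries, as their selection required. The noncoding TPM1-AS and LOC101929479 changed by -2.1 and -2.09, the pseudogene SMG1P3 by -2.12 and ANKRD36B by -1.98, the last 2 with near copies elsewhere that make their counts uncertain.

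The genes on the 2 sides differed in base composition and in coding length. Across 17382 genes, the log2 change in P-bodies correlated with the GC content of the coding part at a Spearman rho of -0.409, and with coding length at -0.181. Transcript length gave 0.016 over 20319 genes. Among genes averaging 20 CPM or more the values were -0.677 and -0.297 (6279 genes), and -0.137 for transcript length (6362 genes). Genes are not independent replicates and share the same 4 libraries, so these values are descriptions. In the tenth of genes with the lowest coding GC content, 31.1% to 41.3%, the median log2 change was 0.91, 79.0% of genes were enriched and 3.20% were depleted. In the tenth with the highest, 63.7% to 80.2%, the median was -0.50, 5.26% were enriched and 36.3% depleted. In 5 equal groups of coding length, the median fell from 0.42 in the shortest (75 to 822 bases) through 0.15, 0.06 and -0.03 to -0.33 in the longest (2703 to 107973 bases). Both features were visible together. Short genes with the lowest GC content had a median of 0.95, and long genes with the highest GC content had a median of -1.06. Short genes with the highest GC content had a median of 0.05 and long genes with the lowest a median of 0.65.

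**Figure D4:**
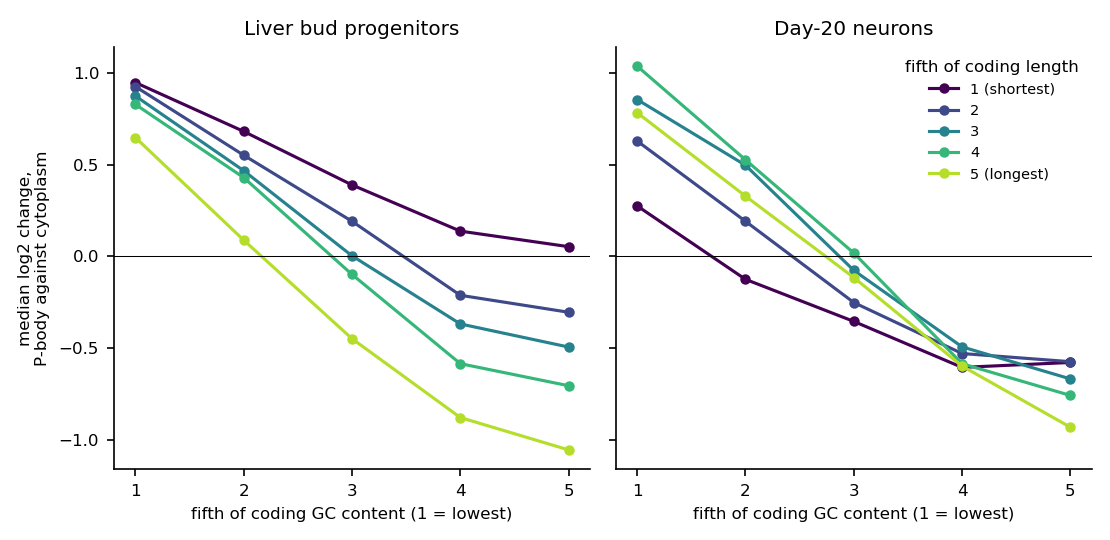
Median log2 change in P-bodies against cytoplasm (y axis) in 5 equal groups of coding GC content (x axis) with 1 line for each of 5 groups of coding length, for liver bud progenitors (left) and day-20 neurons (right). In liver bud progenitors the lines are ordered by length at each GC content, from the shortest genes on top to the longest below.

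The start of the coding part is shown for some genes named above, with G and C in capitals (first 90 bases of the longest GENCODE coding transcript on hg38, in the direction of translation; gene positions are given above for ZCCHC10, PUS3 and HSPG2, and LAMA5 lies on chromosome 20, 62307955 to 62367312, minus strand).
PUS3: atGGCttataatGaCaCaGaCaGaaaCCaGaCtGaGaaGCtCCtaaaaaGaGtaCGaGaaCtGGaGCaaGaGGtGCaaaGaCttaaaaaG
ZCCHC10: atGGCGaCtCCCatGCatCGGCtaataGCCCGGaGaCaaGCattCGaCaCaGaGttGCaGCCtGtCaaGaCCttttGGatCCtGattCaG
HSPG2: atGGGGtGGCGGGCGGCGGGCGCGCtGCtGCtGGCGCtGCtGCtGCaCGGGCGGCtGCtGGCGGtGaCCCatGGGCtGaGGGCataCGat
LAMA5: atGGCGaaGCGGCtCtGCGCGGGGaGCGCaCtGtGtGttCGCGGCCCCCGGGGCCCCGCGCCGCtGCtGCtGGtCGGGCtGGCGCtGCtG
Over these 90 bases G and C made up 41.1% in PUS3 and 52.2% in ZCCHC10, and 74.4% in HSPG2 and 77.8% in LAMA5. Over the whole coding part the values were 44.4% and 43.4% in the enriched genes, of 1443 and 576 bases, and 64.6% and 66.9% in the depleted genes, of 13173 and 11085 bases. The first 90 bases did not always show the contrast. They held 52.2% G and C in the enriched ZNF680 and 55.6% in the depleted KMT2D. Over their whole coding parts the values were 36.7% and 60.1%. The gene lists were spread over the same features. The median coding GC content of zinc finger genes was 43.8% and that of collagens 60.2%. Replication-dependent histones were an exception to the order by GC content, with a median coding GC content of 61.0%, a median coding length of 390 bases and a median log2 change of 0.73.

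The same fraction pair in day-20 neurons gave the nearest comparison, with the same tagged line and molecule label. The difference in log2 change between the cell types was tested as an interaction over 8 libraries. Of 22268 genes, 1892 (8.5%) had a higher change in liver bud progenitors and 2050 (9.21%) a higher change in neurons (edgeR's quasi-likelihood test, adjusted p under 0.05). Leaving out 1 library moved these counts by more than 1.5 times in most cases. They were 1160 to 1234 and 1208 to 1267 without any 1 of the liver bud progenitor libraries, 1565 and 1611 and 1193 and 1255 without either neuron cytoplasm library, and 3513 and 3628 and 2772 and 2592 without either neuron P-body library. The neuron P-body libraries differed from each other more than any other pair, with a rho of 0.911 across genes. With library size only the counts were 940 and 3520, and the median difference of all genes moved from -0.23 to -0.58.

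Several lists that were mostly enriched in liver bud progenitors had mostly depleted calls in neurons, with 2 enriched and 38 depleted for cytosolic ribosomal proteins, 2 and 23 for oxidative phosphorylation and 1 and 25 for replication-dependent histones, against 14.6% and 14.1% of all genes in neurons. Of 83 cytosolic ribosomal proteins, 65 had a higher change in liver bud progenitors and 0 in neurons, and their median log2 change in neurons was -0.48. For oxidative phosphorylation the counts were 36 and 0 of 76, with a neuron median of -0.60, for replication-dependent histones 39 and 0 of 64, with -0.96, and for translation factors and other TOP transcripts 19 and 2 of 31, with -0.50, the count of 2 being 1 without neuron P-body replicate 1 and 0 without any other single library. Mitochondrial ribosomal proteins gave 23 and 0 of 78, 8 and 0 without cytoplasm replicate 2 or P-body replicate 1 of liver bud progenitors, 37 and 0 without either neuron P-body library, and 10 and 1 with library size only. Leaving out a library moved the first count of ribosomal proteins between 59 and 72 and that of histones between 28 and 48. For oxidative phosphorylation it was 23 without P-body replicate 1 of liver bud progenitors and 57 without neuron P-body replicate 2. H4C3 changed by 2.1 in liver bud progenitors and -1.06 in neurons, a difference of 3.16 (adjusted p = 3.05e-10, edgeR). H4C5, another histone H4 gene, changed by 1.35 and -1.0, a difference of 2.36 (adjusted p = 6.26e-09). YBX1, the cold shock protein that packs messenger RNA, had 1723 and 1594 CPM in P-bodies and 758 and 807 CPM in cytoplasm in liver bud progenitors, a log2 change of 1.08 beside -0.75 in neurons (adjusted p of the difference 5.28e-09). EEF1A1 changed by 0.94 and -0.58, a difference of 1.53 (adjusted p = 8.40e-09). These 4 rose in P-bodies of liver bud progenitors and had negative values in neurons.

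The opposite difference was found for chromatin regulators, of which 40 of 62 had a higher change in neurons and 1 a lower one (4 without either neuron P-body library), and for spindle and kinetochore genes, with 21 and 0 of 35. Of 531 zinc finger genes, 128 had a higher change in neurons and 13 a lower one, with a median of 1.01 in neurons. The first of these counts lay between 80, without neuron cytoplasm replicate 1, and 154, without neuron P-body replicate 1, and the second between 7, without either liver bud progenitor P-body library, and 44, without neuron P-body replicate 2. PRTG, the receptor protogenin of the early neural tube, had 486 and 466 CPM in P-bodies and 318 and 308 CPM in cytoplasm in liver bud progenitors, a log2 change of 0.61 beside 3.44 in neurons, a difference of -2.83 (adjusted p = 3.05e-10, edgeR). CHD7, a chromatin remodeler, had 714 and 763 CPM in P-bodies and 776 and 796 CPM in cytoplasm, was not called in liver bud progenitors at -0.09 (adjusted p = 0.162) and changed by 1.95 in neurons, a difference of -2.03 (adjusted p = 1.34e-09). With filterByExpr and with library size only it passed as depleted in liver bud progenitors. ZBTB18, a transcriptional repressor, changed by 0.86 and 3.0, a difference of -2.13 (adjusted p = 5.16e-09). For LSM14A the changes were 0.28 and 2.13, a difference of -1.84 (adjusted p = 5.28e-09). For PRTG, ZBTB18 and LSM14A the sign was the same in both cell types and the size differed.

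**Figure D5:**
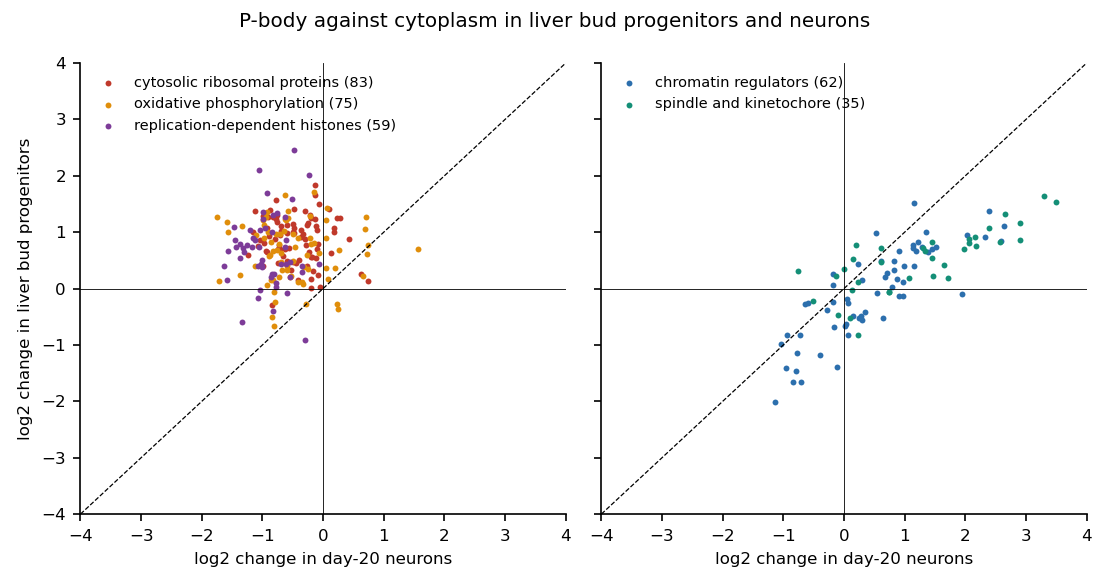
Log2 change in P-bodies against cytoplasm in liver bud progenitors (y axis) and day-20 neurons (x axis), for 217 genes of 3 lists (left) and 97 genes of 2 lists (right), with the dashed line where both are equal. On the left 206 genes lie above the line and on the right 81 lie below it, and 5 genes lie outside the axes.

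The extracellular matrix list was on the cytoplasm side in both cell types, with medians of -1.06 and -1.08 and with 2 enriched and 17 depleted of 40 in neurons. Its change was higher in liver bud progenitors for 2 genes and in neurons for 9, beside 8.5% and 9.21% over all genes, and the 9 were 4 or 5 without any 1 of the liver bud progenitor libraries, 5 without either neuron cytoplasm library and 13 without neuron P-body replicate 1. The 2 were 1 without any 1 of the liver bud progenitor libraries or neuron cytoplasm replicate 2, and 4 without either neuron P-body library. Collagens gave 0 and 0 of 15, and laminins, fibronectin and other matrix proteins 2 and 6 of 14, with a median difference of -0.52. Coding length was related to the change in a different way in the neurons. Across the same groups, the neuron medians were -0.33 in the shortest and -0.18, -0.002, 0.08 and -0.07 in the longer ones. The median difference, liver bud progenitors minus neurons, was 0.61 in the shortest and -0.28 in the longest group. Oxidative phosphorylation genes had a median coding length of 469.5 bases and a median difference of 1.07. For mitochondrial ribosomal proteins these were 598.5 bases and 0.95, for chromatin regulators 5042 and -0.60, and for spindle and kinetochore genes 1926 and -0.87. The part of length in these differences was not tested. For short genes with the lowest GC content the neuron median was 0.27 beside 0.95 in liver bud progenitors, and for long genes with the highest GC content -0.93 beside -1.06.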

How the data were processed

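Per the labels, RNA was extracted with the miRNeasy Micro Kit, and the libraries labelled polyA RNA were made with a V4 Ultra kit and Nextera XT and sequenced as paired reads. The authors deposited whole-number counts per gene symbol for the human libraries, in a table of 22286 genes that holds genes over a minimum count. The study's methods describe hisat2 with featureCounts for Smart-seq libraries and the nf-core pipeline with salmon for snapTotal-seq, on refGene and hg38; which of them made the columns used here is not given in the sources used here. If salmon did, it split reads between near-identical copies. Other columns and the authors' own table of fold changes and p-values were not used.

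The 4 liver bud progenitor libraries were fitted in edgeR 4.0.16 (R 4.3.3) and tested by quasi-likelihood, with TMM normalization, no covariate and a two-sided p, after leaving out genes with 0 counts in all of them. A gene was called when its adjusted p (Benjamini-Hochberg, over all genes tested) was under 0.05. The difference from neurons was the interaction of fraction and cell type over 8 libraries. CPM values are TMM-normalized. SE was taken from the log2 change and the F statistic. Total counts per library ranged from 6368953 to 10270471, and the median SE of called genes with at least 20 CPM was 0.096. Lists are described by counts and medians, with no test over a list.

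The members, the lists and the rule for named genes were chosen with earlier results of these data known. The rule took, per direction, the 10 genes of largest log2 change among those called that averaged at least 20 CPM and did not overlap between fractions, ribosomal RNA copies left out, for the interaction the 4 genes per direction with the smallest p, and members of the lists and LSM14A. Some list members are counted in their lists but not reported singly here. GC content, length and positions came from the longest transcript in GENCODE, found for 92.5% of symbols, and start-site sequences from RefSeq promoters. The replicate numbers of the labels were checked for pairing, and deviations of same-numbered libraries correlated at 0.063 over 6447 genes. The study's methods keep sorted P-bodies with aliquots of the cytoplasm fraction they came from, but the labels do not say whether equal numbers mark such pairs. A low correlation cannot exclude pairing, because noise of single libraries can hide it. The main fit took no pairs, and the replicate number as a block was tried as an alternative. The steps were tested on simulated data. The alternatives tried were library size only, RLE size factors, DESeq2 1.42.0, the filter filterByExpr, no filter, ribosomal RNA copies left out, the replicate number as a block, all human libraries in 1 fit, and each library left out.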

Additional observations from a re-analysis of the deposited data

Results flagged for a closer look

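The comparison with neurons was singled out because the difference between the cell types was itself tested, as the interaction of fraction and cell type in edgeR. The change in P-bodies was higher in liver bud progenitors for 1892 genes and higher in neurons for 2050. Among single genes the log2 difference, liver bud progenitors minus neurons, was 3.16 for H4C3, 2.36 for H4C5, 1.84 for YBX1 and 1.53 for EEF1A1, and -2.83 for PRTG, -2.13 for ZBTB18, -2.03 for CHD7 and -1.84 for LSM14A. By list, the change was higher in liver bud progenitors for 65 of 83 cytosolic ribosomal proteins and 39 of 64 replication-dependent histones. The same was found for 36 of 76 oxidative phosphorylation genes. It was higher in neurons for 40 of 62 chromatin regulators and 21 of 35 spindle and kinetochore genes. Over all genes tested the shares were 8.5% and 9.21%. Leaving out 1 library moved the list counts, as described above. The cell types also differ in culture and in the spread of their P-body libraries, and the part of either in these values was not tested.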

How the results depend on the processing

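For P-bodies against cytoplasm, the counts of enriched and depleted genes were within 1.5 times the reported ones under every alternative, from 3692 (DESeq2) to 4761 and from 2547 (DESeq2) to 4850 (library size only). With library size only 3822 were enriched. Leaving out each library gave 4055 to 4351 and 3079 to 3330, where the lone library of a fraction is assumed to vary like the other fraction. For the interaction the counts were 940 and 3520 with library size only, and 1160 to 3628 and 1193 to 2772 when each library was left out. With the replicate number as a block they were 4761 and 3720 for the fractions and 2334 and 2367 for the interaction. Whether the numbers pair the libraries is not given by the labels. Of 1596 alternative values for the 133 genes named for the fractions, 1570 kept direction and side of the threshold, 22 were no longer past it, 4 came to pass and 0 reversed, and all 120 for the 8 interaction genes were kept. Of 324 alternative list medians 6 changed sign: cAMP 0.062 without cytoplasm replicate 2 (-0.368 at the other end of the fits without 1 library), FGF and RAS -0.128 with library size only, secretory pathway -0.015 with filterByExpr and -0.112 with library size only, and chromatin regulators 0.001 and 0.006 without P-body replicate 1 and 2 (-0.043 at the other end of these fits). Of 648 list counts 50 moved by more than 1.5 times. The rho with GC content of the transcript, -0.363, was -0.409 on the coding part, -0.587 among genes of at least 1 CPM and with filterByExpr, and between -0.364 and -0.309 without 1 library. The cause of these moves was not tested. With 2 libraries a fraction, and P-body RNA present in the cytoplasm fraction, small changes and genes near the floor cannot be resolved.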
